A study of Mus musculus with 2 samples.

Results

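Translation initiation and elongation factors were examined in E14.1, a mouse embryonic stem cell line, by RNA-seq of 2 libraries, 1 from cells with T136A AHCY and 1 from cells with WT AHCY. AHCY is the enzyme that hydrolyses S-adenosylhomocysteine after methyl transfer, and in T136A a threonine of the protein is replaced by alanine. Genes were taken by symbol, all those beginning with Eif1 to Eif6, Eef1 or Eef2, with the kinases of eIF2 and the inhibitors of eIF4E included. Eef1e1, Eif2s3y and pseudogenes with -ps in the symbol were left out. This gave 66 genes of the 25740 measured, and 61 of them reached 1 RPKM (read density per exon length and library depth) in at least 1 library. No agent or further allele is given in the labels, nor is it stated how the T136A cells were made or whether they are 1 clone. With 1 library per genotype there is no spread between replicates, so every difference below compares these libraries and has no replicate check.

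Translation of an mRNA begins when the small ribosomal subunit, carrying the initiator tRNA bound by eIF2, is joined by eIF1, eIF1A, eIF3 and eIF5 and is brought to the capped end of the mRNA by eIF4E, eIF4G and the helicase eIF4A. The complex scans to a start codon, eIF2 hydrolyses GTP and leaves, and eIF5B helps the large subunit to join. The eEF1 complex then delivers each aminoacyl-tRNA and eEF2 moves the ribosome along. Cells slow initiation by phosphorylating eIF2, which blocks its exchange factor eIF2B, or by letting eIF4E-binding proteins hold eIF4E. Embryonic stem cells are known for a low overall rate of protein synthesis that increases on differentiation.

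The totals implied by the values were 18396840 reads for T136A and 17506154 for WT. Ahcy itself was at 56.6 RPKM in T136A and 52.9 RPKM in WT, a level that does not check the labels, since a replaced residue need not alter the transcript. All 6 stem cell markers examined (Pou5f1, Sox2, Nanog, Klf4, Zfp42 and Esrrb) were between 98.0 and 517 RPKM in T136A and between 106 and 673 RPKM in WT. The summed levels of 4 fibroblast markers were 5.91 RPKM in T136A and 3.01 RPKM in WT, of which Thy1 made up 5.32 and 2.50 RPKM. The other 3 were each below 1 RPKM in both libraries, with Postn at 0 in WT. For 4 primitive endoderm markers the sums were 5.48 and 3.04 RPKM in T136A and WT, for 3 mesoderm markers 1.09 and 1.45, and for 3 trophectoderm markers 0.281 and 0.513. Of 4 neural markers, Pax6 was at 0 in both libraries and Tubb3 made up 22.5 of 26.0 RPKM in T136A and 23.8 of 32.8 RPKM in WT. Sox1 was at 1.55 RPKM in T136A and 7.77 RPKM in WT, and Nes at 1.91 and 1.18 RPKM. The part of other cell types in the differences below was not tested.

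Of the 61 translation factors at or above 1 RPKM, Eif1, Eif1b and Eif4ebp1 were the only ones at least 2-fold lower in T136A, and none was at least 2-fold higher. All such counts are on the scale of log2(RPKM + 1), T136A over WT, which understates changes of weakly expressed genes such as Eef1a2. The 3 lower genes are 4.92% of the 61, beside 3.1% of all 12320 genes at or above 1 RPKM. The share higher was 0%, beside 3.13% of all genes. At 1.5-fold, 5 translation factors were higher (8.2%, beside 10.4% of all genes) and 4 were lower (6.56%, beside 11.3%). The other 52 lay within 1.5-fold. The shares past these lines were thus below those of all genes, except at 2-fold lower, where the share rests on 3 genes. Most of the machinery was present at similar transcript levels in both libraries. In bulk RNA, fewer cells that express a gene and less RNA per cell cannot be told apart.

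The median log2 ratio of the 61 genes was 0.05, beside -0.03 for all genes. Above 0 lay 35 of them (57.4%), beside 47.4% of all genes. Whole reads could be recovered in both libraries for 49 of the 61. The 12 without recovered reads all lie on chromosomes 15, 16, 18 and 19, so the loss was uneven by chromosome. The 95% exact interval of the fold, which covers counting error only, excluded 1 for 41 of the 49. On the higher side that was 21 genes (42.9%, beside 31.7% of all genes with recovered reads) and on the lower side 20 (40.8%, beside 36.9%). These intervals are narrow because the genes are strongly expressed, with a median of 66.7 RPKM in T136A and 52.2 RPKM in WT, beside 6.58 and 6.80 RPKM for all genes. Among the 614 genes with a mean of at least 100 RPKM, 22 (3.58%) were at least 2-fold lower in T136A and 14 (2.28%) at least 2-fold higher. Of 19 translation factors at that level, 2 were among the lower ones (10.5%), Eif1 and Eif4ebp1, and 0 among the higher.

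**Figure D1:**
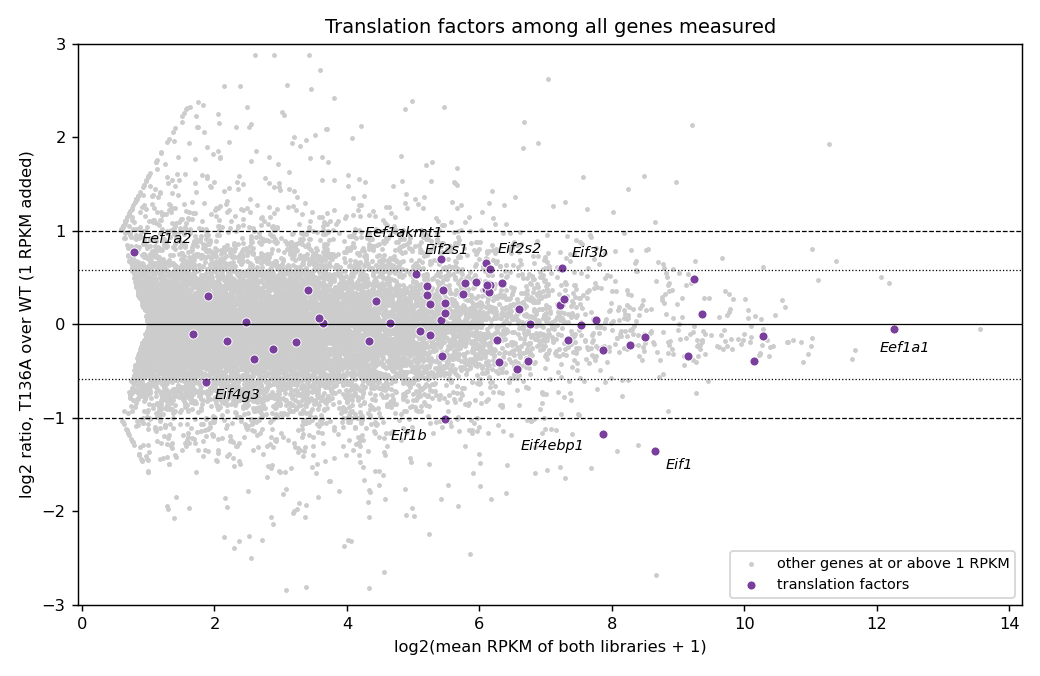
Log2 ratio of T136A over WT (vertical, 1 RPKM added to both) against the log2 mean level of both libraries (horizontal) for genes at or above 1 RPKM; purple points are the 61 translation factors, dashed lines mark 2-fold and dotted lines 1.5-fold, and 11 genes beyond a log2 ratio of 3 in either direction are not shown. Most translation factors lie inside the dotted lines at high levels, and Eif1, Eif4ebp1 and Eif1b are the 3 below the lower dashed line.

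The largest difference among the 61 on this scale was in start codon selection. Eif1, which lets the scanning complex reject poor start codons, is ENSMUSG00000035530, annotated in GENCODE M21 on the plus strand of GRCm38 chromosome 11 from 100319885 to 100322096. It was at 224 RPKM in T136A and 577 RPKM in WT, 2.57-fold lower in T136A (95% counting interval 2.51 to 2.64), from 8663 and 21199 reads. In the order of all genes it stood at rank 237 in T136A and rank 91 in WT. Eif1b, a paralogue encoding a very similar protein, is ENSMUSG00000006941 on the plus strand of chromosome 9 from 120492232 to 120495330. Its level was 28.5 RPKM in T136A and 58.4 RPKM in WT, 2.05-fold lower (1.85 to 2.27), from 590 and 1151 reads. Both paralogues were thus lower, and the weaker one stayed at a similar fraction of the stronger, 0.127 in T136A and 0.101 in WT.

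The start codons of Eif1 and Eif1b lie in a poor context themselves, which is known to let eIF1 limit its own synthesis. A start codon is read most readily with a purine as the third base before it and a G right after it. The stretches below run from 10 bases before the start codon to 3 bases after it in the GENCODE M21 transcripts (GRCm38), read on the strand of the mRNA. They are shown because they set both lower genes, whose chromosomes are given above, beside their functional opponent Eif5 (chromosome 12), the third lower gene Eif4ebp1 (chromosome 8), the abundant Eef1a1 (chromosome 9) and Eif4g2 (chromosome 7), annotated with a start codon other than ATG. Capitals mark the third base before the start codon, the start codon and the base after it.
Eif1: atcgtatCgtATGTcc
Eif1b: ctagtgtCgcATGTcc
Eif5: ataagccAaaATGTct
Eif4ebp1: tgcaggaGacATGTcg
Eef1a1: caaagcaAaaATGGga
Eif4g2: agccgccAaaGTGGag
Eif1 and Eif1b have neither feature. They share this with Eif3b and Eef1akmt1, so that 4 of the 61 genes (6.56%) have neither, beside 5.87% of 10663 coding genes at or above 1 RPKM. Of these 4 genes, Eif1 and Eif1b were lower and Eif3b and Eef1akmt1 higher in T136A (below). Whether context goes with level was not tested. Both features were present in 31 of the 61 (50.8%), beside 46.6% of coding genes. The context bears on how a message is read, and translation was not measured here.

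Copies of Eif1 elsewhere in the genome could take or give reads, since the rule for reads that match several places is not given in the sources used here. Transcripts of 13 other genes matched Eif1 with at least 95% identity over 300 or more bases. Of these, 8 had values, which summed to 42.9 RPKM in T136A and 53.9 RPKM in WT. The coding gene Emd, one of whose transcripts holds such a stretch, accounted for 38.1 and 34.7 RPKM of that. With the reads of all 8 added to those of Eif1, the level was 2.29-fold lower in T136A. All reads of Emd went into this sum, although its match covers 662 bases. Emd was higher in T136A, and each other copy with a value was lower. Eif1b had no match at this identity, not even in Eif1.

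Promoters were read from the RefSeq promoter table (GRCm38.p6). The 100 bases before the start annotated there are shown for both paralogues, which were lower together. These starts lie downstream of the GENCODE gene starts given above. The Eif1b stretch, with its E-box, therefore lies inside the GENCODE gene, and the Eif1 stretch lies partly inside. Capitals mark a CCAAT box in Eif1 and an E-box, CACGTG, in Eif1b.
Eif1, chr11:100319849-100319948, plus strand: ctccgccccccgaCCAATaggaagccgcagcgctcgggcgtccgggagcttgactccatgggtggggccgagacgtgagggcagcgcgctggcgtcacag
Eif1b, chr9:120492506-120492605, plus strand: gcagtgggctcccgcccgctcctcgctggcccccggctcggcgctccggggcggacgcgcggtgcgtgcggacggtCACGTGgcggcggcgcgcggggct
Both strands of the table's 300-base windows, 250 bases before the start and 50 after, were searched for these motifs and for TGATGNAA, the element bound by dimers of C/EBP and ATF factors. The motifs do not overlap each other in the stretches shown, and a gene with several annotated starts counted when any window had a match. Of the 61 genes, 49 had a window. Eif4ebp1 had none, so its promoter was not searched. TGATGNAA was found in 2 of the 49, Eef2k and Eif2s3x (4.08%, beside 2.56% of 8904 genes at or above 1 RPKM). In Eef2k it lay only in the window of the most downstream annotated start. CACGTG, which reads the same on both strands and which MYC and related factors bind, was in 12 (24.5%, beside 12.3%). CCAAT was in 15 (30.6%, beside 43.8%). A match is a description of the letters only.

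The other 5 genes of start selection went both ways, and none was past 1.5-fold, beside 10.4% of all genes higher and 11.3% lower. Eif5, the GTPase activator of eIF2 that works against eIF1 at the start codon, was at 40.2 RPKM in T136A and 34.4 RPKM in WT. The ratio of Eif1 to Eif5 transcripts per exon length was therefore 5.59 in T136A and 16.8 in WT. For Eif1b over Eif5 the ratios were 0.710 and 1.70. Eif5b, which promotes joining of the subunits, was at 38.1 RPKM in T136A and 25.9 RPKM in WT, 1.47-fold higher (1.42 to 1.53) and with a log2 ratio of 0.54 just short of the 1.5-fold line. The autosomal gene Eif1a encodes a form of eIF1A, the partner of eIF1 in scanning, and had 78.5 RPKM in T136A and 58.3 RPKM in WT. Its X-linked counterpart Eif1ax had 32.4 and 34.1 RPKM. Eif1ad, which encodes a protein with an eIF1A-like domain that acts in ribosome assembly, had 37.2 and 47.5 RPKM.

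**Figure D2:**
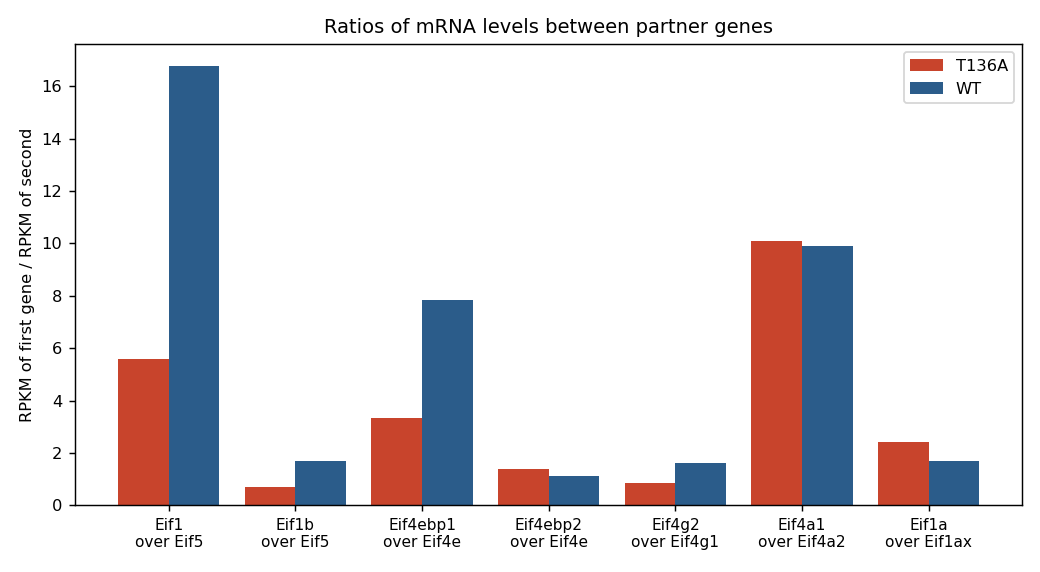
Ratios of RPKM between pairs of genes that work together or are paralogues (horizontal), as plain numbers on a linear axis from 0 (vertical), with T136A in red to the left of WT in blue and 1 library per genotype. The ratios of Eif1 and Eif1b to Eif5 and of Eif4ebp1 to Eif4e are lower in T136A, while Eif4a1 over Eif4a2 is 10.1 in T136A and 9.88 in WT.

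The inhibitors of eIF4E split. Eif4ebp1 (ENSMUSG00000031490, GRCm38 chromosome 8, 27260329 to 27276674, plus strand) encodes an eIF4E-binding protein that mTORC1 switches off by phosphorylation, and it is known in mouse as a target gene of ATF4. It was at 143 RPKM in T136A and 323 RPKM in WT, 2.26-fold lower (2.19 to 2.33), from 5768 and 12403 reads. Its paralogue Eif4ebp2 went the other way, at 58.9 RPKM in T136A and 46.9 RPKM in WT (1.26-fold higher, 1.21 to 1.30). Eif4ebp3 was hardly detected, with 3 reads in T136A and 1 read in WT. Eif4enif1, which carries eIF4E into the nucleus and to P-bodies, was at 17.8 and 20.3 RPKM in T136A and WT.

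The target of these inhibitors stood at a nearly equal level. Eif4e, the cap-binding protein, was at 42.7 RPKM in T136A and 41.2 RPKM in WT, and its counting interval of 0.994 to 1.08-fold included 1. Eif4ebp1 and Eif4ebp2 together thus stood at 4.72 times the Eif4e level in T136A and at 8.96 times in WT. Eif4ebp1 alone stood at 3.34 and 7.82 times Eif4e. In T136A it was 2.42 times Eif4ebp2, and in WT 6.88 times. These ratios compare transcripts per exon length and say nothing of phosphorylation, on which binding depends.

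The other cap-binding and scaffold genes at or above 1 RPKM went both ways within 1.5-fold, except for Eif4g3. Eif4e2, a cap-binding relative that represses translation of certain mRNAs, was at 41.0 RPKM in T136A and 30.6 RPKM in WT. Eif4e3 (0.454 and 0.954 RPKM) and the oocyte form Eif4e1b (3 reads in T136A and 0 in WT) did not reach 1 RPKM. Eif4g1, the main scaffold that joins eIF4E, eIF4A and eIF3, was at 92.4 RPKM in T136A and 68.0 RPKM in WT. Eif4g2, which lacks the eIF4E-binding part and serves initiation without the cap, was at 78.4 RPKM in T136A and 110 RPKM in WT, 1.40-fold lower (1.37 to 1.43). The order of these scaffolds was thus Eif4g1 over Eif4g2 in T136A and Eif4g2 over Eif4g1 in WT, with Eif4g2 at 0.848 and 1.62 times Eif4g1. The minor scaffold Eif4g3 was at 1.87 RPKM in T136A and 3.41 RPKM in WT, with a log2 ratio of -0.62.

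Both helicases of initiation, Eif4a1 and Eif4a2, were higher in T136A. Eif4a1, the main helicase that unwinds the leader of the mRNA, was at 706 RPKM in T136A and 503 RPKM in WT, 1.40-fold higher (1.38 to 1.42). Its paralogue Eif4a2 had 70.0 and 50.9 RPKM, a nearly equal difference of 1.38-fold (1.33 to 1.43). Eif4a3, a core protein of the exon junction complex rather than an initiation factor, was level, at 184 RPKM in T136A and 185 RPKM in WT. The cofactor Eif4b was at 169 RPKM in T136A and 140 RPKM in WT, whereas the related cofactor Eif4h was at 66.7 and 88.4 RPKM, 1.33-fold lower (1.28 to 1.37). The processed pseudogene Eif4a-ps4, 99.9% identical to an Eif4a1 transcript over 1218 bases, was listed at 615 RPKM in T136A and 420 RPKM in WT, so reads of both cannot be kept apart. With the reads of its copies added, Eif4a1 was 1.41-fold higher.

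All 3 subunits of eIF2 were higher in T136A. Eif2s1, the subunit whose phosphorylation slows initiation, was at 82.9 RPKM in T136A and 52.2 RPKM in WT, 1.59-fold higher (1.53 to 1.65), from 7552 and 4524 reads. Eif2s2, which contacts the exchange factor and eIF5, was at 85.2 RPKM in T136A and 56.2 RPKM in WT, 1.52-fold higher (1.47 to 1.56). Its log2 ratio of 0.592 lay just past the 1.5-fold line at 0.585, and with the reads of Gm9892, a pseudogene 99.5% identical to it, the ratio was 0.581, inside the line. The GTP-binding subunit Eif2s3x was at 39.8 RPKM in T136A and 31.8 RPKM in WT, 1.25-fold higher (1.18 to 1.33). Summed over the 3 subunits, eIF2 transcripts stood at 208 RPKM in T136A and 140 RPKM in WT.

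The exchange factor eIF2B, which reloads eIF2 with GTP and has 5 subunits, was nearer to equal in sum, though not in each subunit. Its catalytic subunit Eif2b5 was at 62.4 RPKM in T136A and 45.5 RPKM in WT, 1.37-fold higher. Eif2b4, of the regulatory part, was at 48.5 and 37.3 RPKM, 1.30-fold higher. Both differed more than Eif2s3x (1.25-fold). The regulatory subunits Eif2b1 (35.6 and 38.6 RPKM in T136A and WT) and Eif2b2 (45.4 and 41.7 RPKM) were within 1.1-fold. Eif2b3, of the catalytic part, was the weakest in both libraries, at 11.6 RPKM in T136A and 11.4 RPKM in WT. In sum the 5 transcripts stood at 204 RPKM in T136A and 175 RPKM in WT. Eif2a and Eif2d, which can bring initiator tRNA without eIF2, were at 22.5 and 47.4 RPKM in T136A and at 18.7 and 40.2 RPKM in WT, both about 1.2-fold higher in T136A.

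Of the 4 kinases that phosphorylate eIF2, each tuned to another stress, 0 were past 1.5-fold, beside 10.4% of all genes higher and 11.3% lower. Eif2ak4 (GCN2), which senses uncharged tRNA when amino acids run short, was at 3.25 RPKM in T136A and 3.82 RPKM in WT. Eif2ak3 (PERK), the sensor in the endoplasmic reticulum, was at 4.58 and 4.49 RPKM. Eif2ak1 (HRI), which responds to heme lack and mitochondrial stress, was the strongest, at 11.0 RPKM in T136A and 8.30 RPKM in WT. Eif2ak2 (PKR), which binds double-stranded RNA, was at 3.14 and 2.35 RPKM. The counting interval included a fold of 1 for Eif2ak3 and excluded it for Eif2ak1, Eif2ak2 and Eif2ak4. All 4 transcripts were weak beside those of their substrate. Atf4, whose mRNA is translated more when eIF2 is phosphorylated, was at 105 RPKM in T136A and 306 RPKM in WT.

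**Figure D3:**
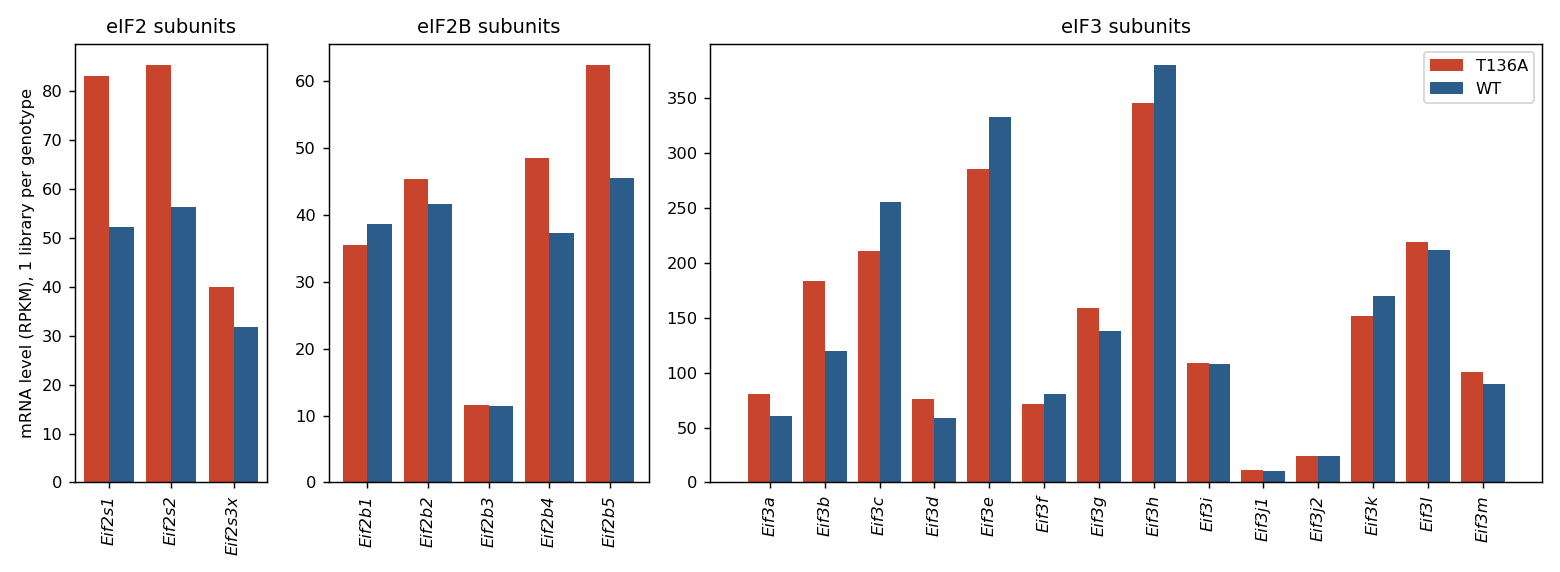
RPKM (vertical, linear from 0, each panel on its own scale) of the subunits of eIF2, eIF2B and eIF3, with T136A in red to the left of WT in blue and 1 library per genotype. Each eIF2 subunit is higher in T136A, and the eIF3 subunits go both ways, from Eif3b at 183 and 120 RPKM in T136A and WT to Eif3c at 210 and 255 RPKM.

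The 14 genes of eIF3, the largest initiation factor, which holds the small subunit and the mRNA together, summed to 2027 RPKM in T136A and 2038 RPKM in WT. Their median log2 ratio was 0.03, and 1 gene, Eif3b, was past 1.5-fold, beside 10.4% of all genes higher and 11.3% lower. Eif3b, on which the peripheral subunits assemble, was at 183 RPKM in T136A and 120 RPKM in WT, 1.53-fold higher (1.48 to 1.57). With its partners Eif3g (159 and 137 RPKM) and Eif3i (108 and 108 RPKM), it summed to 450 RPKM in T136A and 365 RPKM in WT. The 8 genes of the structural core (Eif3a, Eif3c, Eif3e, Eif3f, Eif3h, Eif3k, Eif3l and Eif3m) summed to 1465 RPKM in T136A and 1580 RPKM in WT. A log2 ratio below 0 was found for 5 of the 8, beside 6479 of all 12320 genes.

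Within that core the large subunits Eif3a and Eif3c differed in direction. Eif3a was at 80.9 RPKM in T136A and 60.1 RPKM in WT. Eif3c was at 210 RPKM in T136A and 255 RPKM in WT, 1.21-fold lower (1.19 to 1.24). Eif3e, Eif3f, Eif3h and Eif3k were each at most 1.17-fold lower, Eif3e at 285 and 332 RPKM in T136A and WT and Eif3h, the most abundant, at 345 and 380 RPKM. Eif3l (219 and 212 RPKM) and Eif3m (101 and 90.0 RPKM) were slightly higher in T136A. Eif3d, which can bind the cap of certain mRNAs, was at 76.2 RPKM in T136A and 58.5 RPKM in WT. The loosely bound subunit is encoded by Eif3j1 (11.3 and 10.7 RPKM in T136A and WT) and Eif3j2 (24.2 and 23.9 RPKM), near-identical copies whose separate values are uncertain. The core subunits occur once each in the complex, yet their transcript levels spanned 60.1 to 380 RPKM in WT, an order kept in T136A except at close neighbours.

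Elongation factors include the most abundant transcripts of the group, and 7 of the 8 genes were within 1.5-fold, all but the weakly expressed Eef1a2. Of all genes, 10.4% were at least 1.5-fold higher and 11.3% lower. Eef1a1, which carries aminoacyl-tRNA to the ribosome, was at 4838 RPKM in T136A and 5001 RPKM in WT, at rank 4 and rank 2 of all genes. It took 1.21% of the implied total in T136A (95% Wilson interval 1.20 to 1.21) and 1.25% in WT (1.24 to 1.25). Eef2, the translocase, was at 976 RPKM in T136A and 1277 RPKM in WT, 1.31-fold lower (1.29 to 1.32). Eif5a, the hypusine-bearing factor that helps elongation through stalling stretches, was at 1193 and 1298 RPKM. The level of Eef2 per Eef1a1 was 0.202 in T136A and 0.255 in WT.

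The nucleotide exchange subunits of eEF1 went both ways. Eef1b2, a catalytic subunit, was at 500 RPKM in T136A and 630 RPKM in WT, 1.26-fold lower (1.24 to 1.28). The structural subunit Eef1g was at 681 RPKM in T136A and 628 RPKM in WT, and the other catalytic subunit Eef1d at 78.4 and 61.5 RPKM. Eif5a2, a rarer form of eIF5A, was at 4.26 RPKM in T136A and 5.81 RPKM in WT. Eef1a2, the form typical of muscle and neurons, was at 1.17 RPKM in T136A and 0.274 RPKM in WT, from 45 and 10 reads. That is a plain fold of 4.28 (2.13 to 9.53) and a log2 ratio of 0.77 with 1 RPKM added. The gene passed the minimum through T136A alone.

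Many elongation factor mRNAs begin with a terminal oligopyrimidine tract, the feature through which mTOR controls their translation together with that of ribosomal proteins. Listed from the literature were 9 such genes (Eef1a1, Eef1b2, Eef1d, Eef1g, Eef2, Eif3e, Eif3f, Eif3h and Eif4b). Of these 9, 0 were past 1.5-fold, beside 10.4% of all genes higher and 11.3% lower. The median log2 ratio of the 9 was -0.14, beside 0.06 for the other 52 genes at or above 1 RPKM. The highest was Eef1d with 0.35 and the lowest Eef2 with -0.39. Below 0 lay 6 of the 9, beside 20 of the other 52 and 6479 of all 12320 genes. The other 3 of the list lay above 0, so the list did not share 1 direction throughout.

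Enzymes that modify elongation factors were weakly expressed, except 1. Eef1akmt1, a lysine methyltransferase of eEF1A that uses S-adenosylmethionine, was at 51.9 RPKM in T136A and 31.5 RPKM in WT, 1.65-fold higher (1.48 to 1.84), from 904 and 522 reads. It lies on chromosome 14, where the 1.5-fold line was passed upwards by 116 of 453 genes (25.6%), beside 9.83% of genes elsewhere. The median log2 ratio of that chromosome was 0.32, and its part in the result was not tested. Eef1akmt2 was at 5.73 RPKM in T136A and 7.06 RPKM in WT and Eef2kmt, which methylates eEF2, at 7.78 and 8.99 RPKM. The kinase Eef2k, which halts eEF2 when energy is short, was at 2.08 and 2.30 RPKM. Eef1akmt3 had 3 reads in T136A and 2 in WT.

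The last members stand apart by function. Eif6, which keeps the ribosomal subunits from joining too early and acts in maturation of the large one, was at 90.7 RPKM in T136A and 120 RPKM in WT, 1.32-fold lower (1.27 to 1.37). Eif2c5 meets the rule by its letters, although Eif2c is an older symbol of Argonaute genes, and had 7 reads in T136A and 4 in WT.

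**Figure D4:**
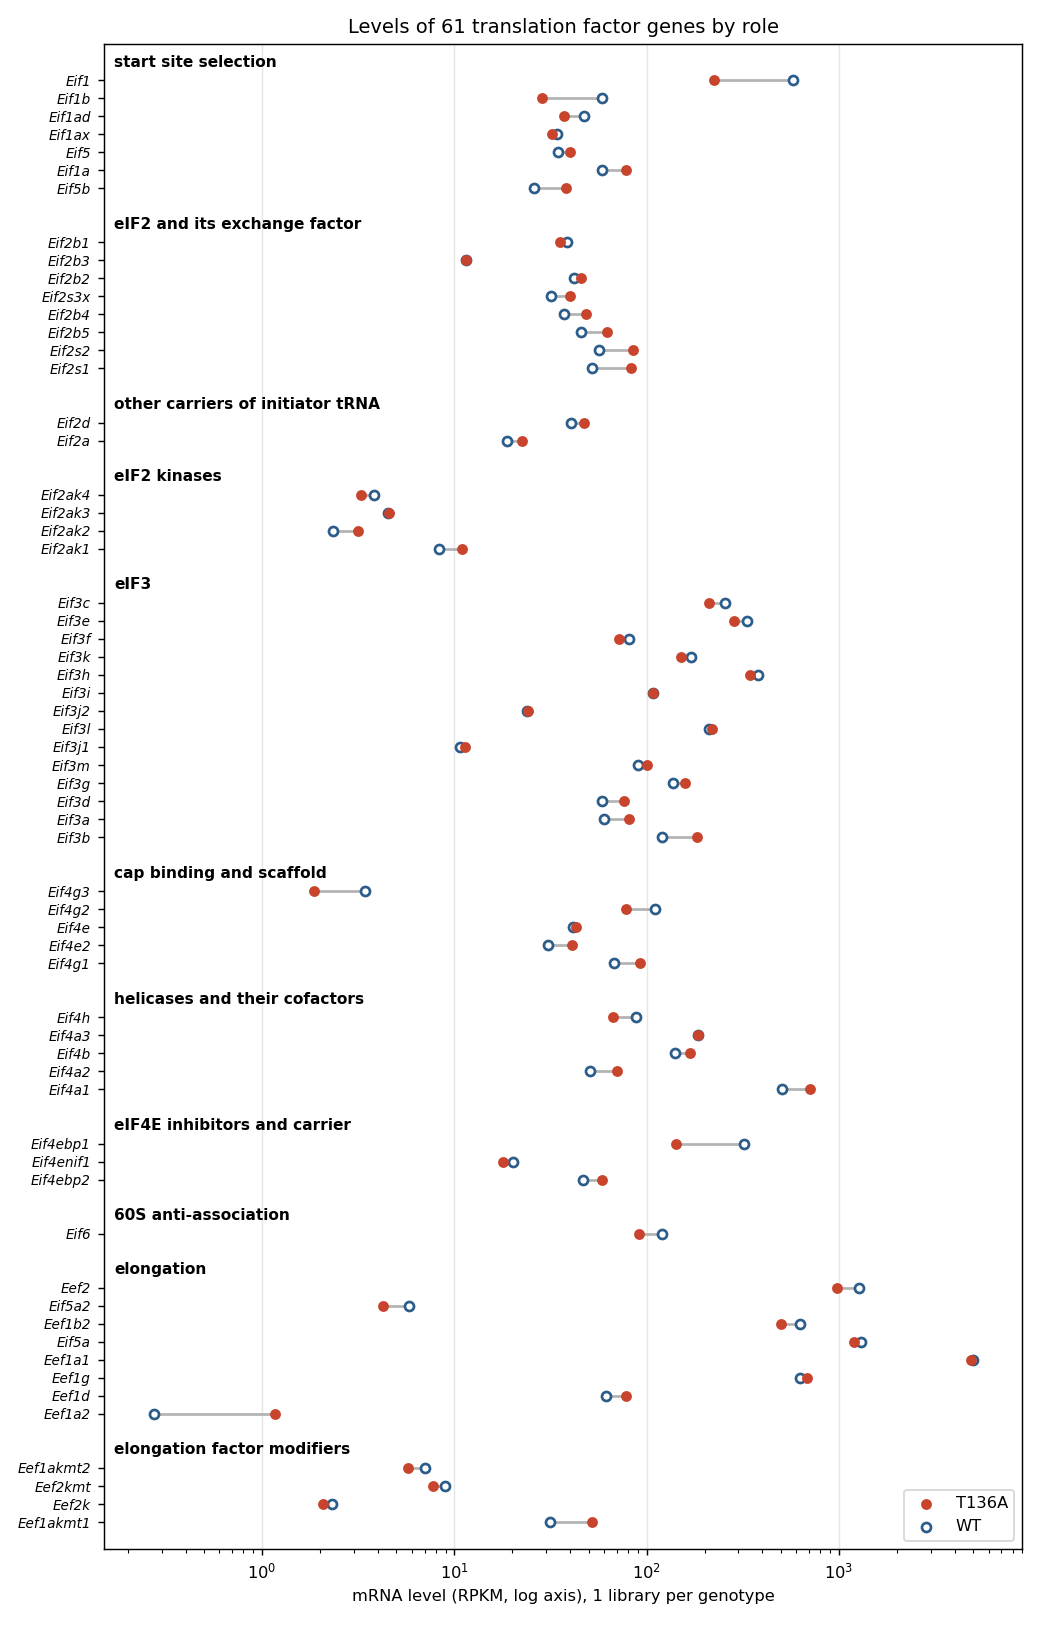
RPKM (horizontal, log axis) of each translation factor at or above 1 RPKM, grouped by role, with a filled red point for T136A and an open blue point for WT, 1 library each, joined by a grey line. The longest lines belong to Eef1a2, whose levels are 1.17 and 0.274 RPKM in T136A and WT, and to Eif1, Eif4ebp1 and Eif1b.

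Around these factors, 67 genes of 7 lists of partners and regulators were measured, of which 65 reached 1 RPKM. Past 1.5-fold, 6 were higher in T136A (9.23%, beside 10.4% of all genes) and 4 lower (beside 11.3%). Past 2-fold, 1 was higher (beside 3.13%) and 0 were lower (beside 3.1%). Their pooled median log2 ratio was 0.00, beside -0.03 for all genes, while the medians of single lists ran from -0.30 to 0.36.

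Mitochondrial translation factors had the highest median of these lists, 0.36, with 8 of 9 above 0, beside 47.4% of all genes. Past 1.5-fold, 2 of the 9 were higher (22.2%, beside 10.4% of all genes) and 0 lower (beside 11.3%). Tufm, the mitochondrial counterpart of eEF1A, was at 133 RPKM in T136A and 51.0 RPKM in WT, 2.60-fold higher. Gfm1, the mitochondrial translocase, was at 36.2 and 20.8 RPKM. The lowest of the list were Gfm2 (8.98 and 9.17 RPKM), for recycling, and the initiation factor Mtif3 (2.57 and 2.40 RPKM). The cytosolic counterparts Eef1a1 and Eef2 had log2 ratios of -0.05 and -0.39.

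Genes that control eIF2 and its kinases were spread out, with 1 of 12 past 1.5-fold higher (8.33%, beside 10.4% of all genes) and 2 lower (beside 11.3%). The lower ones were both targeting subunits of the phosphatase that removes phosphate from eIF2, Ppp1r15a (12.1 RPKM in T136A and 21.9 RPKM in WT) and Ppp1r15b (33.6 and 57.3 RPKM). Abcf1, which binds eIF2 and the ribosome, was highest, at 65.1 RPKM in T136A and 35.1 RPKM in WT, followed by Bzw1, a mimic of eIF5, at 124 and 91.0 RPKM.

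In the list of mTOR and MAP kinase control, 3 of 13 genes were past 1.5-fold higher (23.1%, beside 10.4% of all genes) and 1 lower (beside 11.3%). Pdcd4, an inhibitor of eIF4A, was at 10.2 RPKM in T136A and 5.34 RPKM in WT, and Mknk2, which phosphorylates eIF4E, at 28.3 and 15.8 RPKM. Rps6kb2, a ribosomal S6 kinase, was at 4.98 RPKM in T136A and 9.86 RPKM in WT, and Larp1, which binds oligopyrimidine tracts, at 33.6 and 48.2 RPKM. In termination and recycling, 1 of 8 was past 1.5-fold lower (beside 11.3% of all genes) and 0 higher (beside 10.4%). That gene was Hbs1l, which rescues stalled ribosomes, at 10.5 RPKM in T136A and 19.5 RPKM in WT. Mcts2, a relative of the recycling factor MCT-1, was next lowest at 22.9 and 32.9 RPKM. Denr, the partner of MCT-1 in recycling and reinitiation, was highest at 20.6 RPKM in T136A and 14 RPKM in WT, followed by the release factor Gspt1 at 53.2 and 46.8 RPKM.

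The other 3 lists had 0 genes past 1.5-fold on the scale of log2(RPKM + 1), beside 10.4% of all genes higher and 11.3% lower. In plain RPKM, Ctif was 1.82-fold higher and Dhps 1.52-fold lower in T136A. For poly(A) binding and its inhibitors the median was -0.30, from Paip1 (12.6 RPKM in T136A and 18.9 RPKM in WT) and Paip2 (82.2 and 113 RPKM) to Pabpc1 (494 and 549 RPKM) and Paip2b (21.1 and 17.8 RPKM). Hypusine and diphthamide synthesis had a median of -0.15. Dhps, the first enzyme of eIF5A hypusination, was lowest at 10.7 RPKM in T136A and 16.2 RPKM in WT, and Dph7 stood at 13.9 and 18.1 RPKM. At the other end, Dohh, the second enzyme of that pathway, was at 6.18 and 4.96 RPKM and Dph3 at 6.85 and 5.14 RPKM. Helicases and other cofactors had a median of -0.25, with Mif4gd (25.6 and 36.3 RPKM) and Gtpbp1 (24.7 and 32.7 RPKM) lowest, and Ctif (2.14 and 1.18 RPKM) and Dhx33 (6.76 and 5.13 RPKM) highest.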

How the data were processed

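The authors deposited 1 RPKM value per Ensembl mouse gene and library, for 25749 identifiers. The unit is not named and was settled from the values: times the union exon length in GENCODE M21 and 1 constant per library, 90.0% of the positive values in T136A and 89.9% in WT were whole reads within 0.01. Per the submitters' processing notes, CASAVA 1.8 and mm9 were named; the counting program and how it treated strand or multiply matching reads were not given in the sources used here. These exon lengths belong to another build, GRCm38. Symbols came from a gene name table, which matched 25696 identifiers; of identifiers sharing a symbol, 9 with the lower total were left out.

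Log2 ratios (T136A over WT, with 1 RPKM added to each) were taken over 12320 genes that reached 1 RPKM in at least 1 library. Printed folds are plain RPKM ratios. Fold intervals are 95% exact conditional binomial (Clopper-Pearson) intervals on recovered reads and, like the Wilson intervals of shares, cover counting error only. Reads are not independent molecules. No test between genotypes is possible with 1 library each. Near-identical copies were sought with blastn 2.17.0 in the transcripts of GENCODE M21. Python 3.11.15, pandas 2.3.3 and scipy 1.17.1 were used. The read totals, log2 ratios and fold intervals were tried on simulated reads that held counting error only, the error these intervals assume. The sequence searches and the alternative settings were not simulated.

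The genes, lists and tests were chosen with earlier results of these data known. All translation factors may be named; of each partner list, up to 2 genes at either end; and Ahcy, stem cell markers and Atf4. Emd, Gm9892 and Eif4a-ps4 were named after their values were seen, and the oligopyrimidine list and the grouping of eIF3 subunits were written then too. Other added constants, minimum levels and scalings were tried.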

Additional observations from a re-analysis of the deposited data

How the results depend on the processing

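No alternative turned the direction of a gene past 1.5-fold. Across the 5 alternatives run on single genes (0.1 or 5 RPKM added, and median, upper quartile or quantile scaling) and the addition of reads from copies, chosen after seeing the data, log2 ratios ran from -1.36 to -1.20 for Eif1, from -1.21 to -1.12 for Eif4ebp1 and from -1.03 to -0.92 for Eif1b. Eif1b was short of 2-fold with 5 RPKM added and under median (-0.97) and upper quartile (-0.96) scaling, which left 2 translation factors at least 2-fold lower in each case. With 0.1 RPKM added, Eef1a2 made 1 translation factor at least 2-fold higher, and with 5 RPKM added 3 were at least 1.5-fold higher. Besides Eif1b and Eef1a2, 4 genes crossed the 1.5-fold line in some alternative: Eif2s2, Eif3b, Eif4g3 and Eif5b. The median of the translation factors ran from 0.05 to 0.10 and stayed above that of all genes. Over all genes, 723 were at least 2-fold higher and 727 lower with 0.1 RPKM added. With 5 RPKM added 101 were 2-fold higher and 114 lower, and 523 were 1.5-fold higher and 518 lower. A minimum of 5 RPKM left 209 genes 2-fold higher, 780 1.5-fold higher and 903 1.5-fold lower out of 7603. No paired analysis was possible because each genotype had 1 library. For the 12 translation factors without recovered reads the depth behind a value is not known exactly, and Eef1a2 rests on the fewest reads of those named as differing.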
